A study of Homo sapiens with 48 samples.

Results

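CDKN1A, GADD45A, BBC3, FAS, DDB2 and XPC are 6 genes that cells can switch on after DNA damage. They were followed here through every probe whose gene symbol is one of these 6. That gave 15 of the 1113 probes on the panel, and 6 of its 452 genes. The probes number 3 for CDKN1A, 2 for GADD45A, 2 for BBC3, 3 for FAS, 2 for DDB2 and 3 for XPC. The libraries were made by RASL-Seq, in which neighbouring DNA probes that bind the same RNA are joined by ligation and the joined products are sequenced. All 48 came from WA09, an established human embryonic stem cell line with the genotype label normal. Embryoid bodies (EBs, floating aggregates of differentiating stem cells) were seeded at 20000 cells per well in round-bottom plates and kept in E6 medium to day 7. In the first 24 hours, 16 EB libraries had Y-27632, an inhibitor of the kinase ROCK, and 16 had CEPT, a cocktail of chroman 1, emricasan (a caspase inhibitor), polyamines and trans-ISRIB. They are called Y27 EB and CEPT EB. The hESC group had no treatment, and the ectoderm group had 2 pathway inhibitors in E6 medium for 6 days (100 nM LDN-193189 with 2 µM A83-01). Mesoderm and endoderm were made in 5 days with STEMdiff kits. These 4 control groups had 4 libraries each, and the labels do not say whether a library came from 1 EB, 1 well or a pool.

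When DNA is broken, the kinases ATM and ATR signal through CHEK2 and CHEK1, and genes of arrest, cell death and repair are switched on. CDKN1A encodes p21, which blocks cyclin-dependent kinases and holds the cell cycle. GADD45A encodes a stress-induced protein with roles in arrest and repair. BBC3 encodes PUMA, which opens the mitochondrial route to cell death, and FAS encodes a death receptor at the cell surface. DDB2 and XPC recognise damaged bases for nucleotide excision repair. CDKN1A is also known to change with differentiation and with other stresses, without DNA damage.

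In GRCh38.p14 coordinates from RefSeq, CDKN1A lies at chr6:36676463-36687332 and GADD45A at chr1:67685201-67688334. BBC3 lies at chr19:47220824-47232860, FAS at chr10:88964050-89017059, DDB2 at chr11:47214454-47239217 and XPC at chr3:14145147-14178601. Probes are named by their number on the panel. For CDKN1A, probe 102 sits at position 613 of transcript NM_001220777, and probes 104 and 103 at positions 860 and 1889 of NM_000389. GADD45A is read by probes 296 and 297 at positions 775 and 1119 of NM_001924. BBC3 is read by probe 828 at position 1235 of NM_001127242 and probe 49 at position 1728 of NM_014417. The FAS probes 244, 246 and 245 are at positions 1422, 2185 and 2452 of NM_000043. The DDB2 probes 162 and 163 are at 1293 and 1535 of NM_000107, and the XPC probes 801, 800 and 802 at 594, 2103 and 3413 of NM_004628. Probes differ in how well they ligate, so levels are compared between groups for the same probe and never between probes or genes.

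Libraries held 379810 to 5577868 probe reads. Values are counts scaled to a common library size (CPM), scaled with edgeR's TMM factors. Each differentiated control carried its own markers. All 15 tested ectoderm marker probes were higher in ectoderm than in hESC, all 7 mesoderm probes in mesoderm and all 10 endoderm probes in endoderm. Of 15 pluripotency probes, all were lower in mesoderm, 12 were lower and 2 higher (LIN28A) in endoderm, and 9 were lower and 5 higher (LIN28A and SOX2) in ectoderm. The EB arms carried markers of neurons and neural crest. Their summed level over the neural crest genes SNAI2, FOXD3 and SOX10 was 2257 to 4768 CPM, against 249 to 299 in hESC. Y27 EB replicate 15 stood apart, with the lowest read total and 2597 CPM of the mesoderm gene HAND1 (probe 339), whose Y27 EB median was 6.68. CEPT EB replicate 7 had the highest value of its arm for all 3 CDKN1A probes and both GADD45A probes. As these are bulk lysates, fewer cells of a type and less RNA per cell cannot be told apart.

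**Figure D1:**
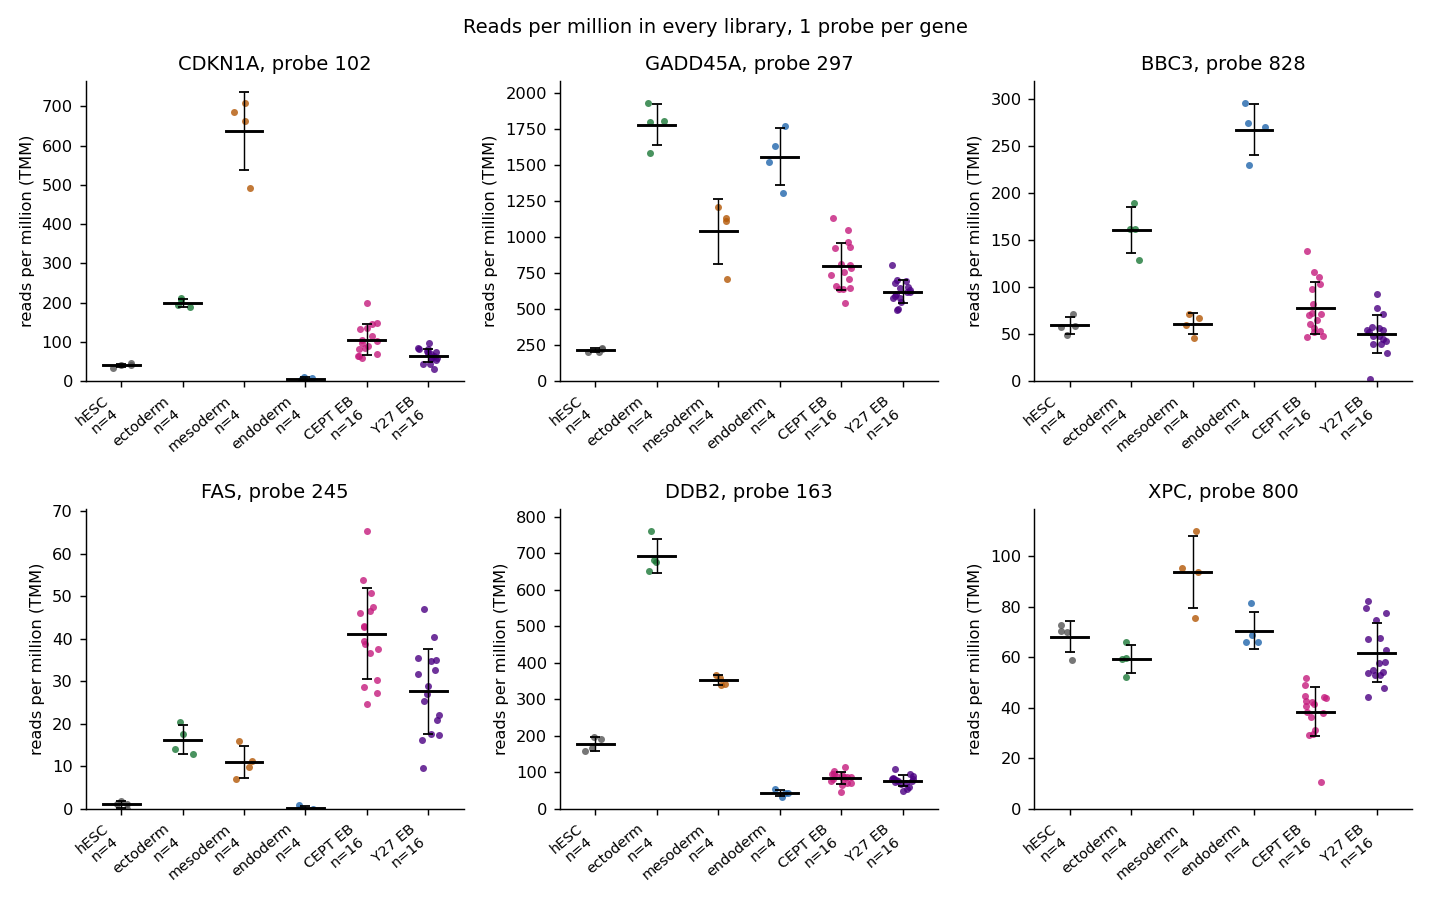
CPM (vertical axes, TMM-scaled) of 1 probe per gene (the highest, and for XPC the probe called between the EB arms) in all 48 libraries by group, with the mean (thick line) and SD (thin bar). CDKN1A stands highest in mesoderm (492 to 708) and lowest in endoderm (1.97 to 11.3). FAS probe 245 is at most 1.90 in hESC and at least 9.69 in every EB library. XPC probe 800 is lower in CEPT EB (10.7 to 51.8) than in Y27 EB (44.2 to 82.2), with overlap.

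The comparison of the EB arms asks what differed at day 7 after a different compound on the first day. CDKN1A, FAS, BBC3 and 1 GADD45A probe were higher in CEPT EB, by 1.3 to 1.8 times. XPC was lower there, and DDB2 did not pass the test. Of the 14 probes past the count filter, 8 were higher and 1 was lower in CEPT EB at an adjusted p under 0.05 (edgeR quasi-likelihood test, Benjamini-Hochberg over all 867 tested probes), while 23.6% of all tested probes were called. The median log2 fold change came to 0.54 over the 14 probes and -0.04 over all. XPC probe 802 did not pass the filter, at 0 to 16 reads in CEPT EB and 0 to 26 in Y27 EB.

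The 8 increases depended on how libraries were scaled, and the XPC decrease did not. With library totals alone in place of TMM, 0 of the 14 probes were called higher and 2 lower, both of XPC. Scaling on reference genes gave 0 higher and 3 lower. The panel's median shifted by -0.31 and -0.47 (log2) with these, and the share of called probes that were higher from 44.9% to 14.2% and 7.97%. Median-ratio factors and DESeq2 moved that share to 58.8% and 60.5%, and both gave 8 member probes higher and 1 lower. The TMM factors had a median of 0.988 for CEPT EB, against 1.23 for Y27 EB. A single RPL13A probe, number 608, took 10.3% ± 2.16 of each CEPT EB library's reads, against 7.51% ± 2.61 for Y27 EB (SD over 16 libraries each), and made up 42.4 to 74.0% of the reference gene reads in CEPT EB and 29.3 to 65.1% in Y27 EB. Which scaling is closest to RNA per cell was not tested.

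Among the arrest genes, CDKN1A had the clearest increase. Probe 102 ranged from 60.1 to 200.1 CPM in CEPT EB (median 99.8), against 30.2 to 97.1 in Y27 EB (median 66.7). Most CEPT EB libraries lay in the upper part of the Y27 EB range or above it, and 13 of 16 exceeded the Y27 EB median. Its log2 fold change came to 0.69 ± 0.16 (SE, adjusted p = 0.00222, edgeR). Probe 104 ranged from 33.7 to 113 CPM in CEPT EB (median 62.0), against 15.5 to 55.0 in Y27 EB (median 28.9), and all 16 CEPT EB libraries exceeded the Y27 EB median. Its log2 fold change came to 0.85 ± 0.20 (SE, adjusted p = 0.0017, edgeR). Under library totals alone these became 0.37 and 0.51, and under reference genes 0.20 and 0.33, neither past the threshold. Without CEPT EB replicate 7, the highest library, they were 0.60 and 0.76 and still called. Probe 103, nearest the transcript's end, was far sparser, at 0 to 135 reads in CEPT EB and 0 to 37 in Y27 EB, and its log2 fold change of 0.96 ± 0.60 did not pass (adjusted p = 0.287, edgeR).

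GADD45A differed little. Probe 297 ranged from 542 to 1131 CPM in CEPT EB (median 769.9), against 496 to 808 in Y27 EB (median 617). The log2 fold change came to 0.34 ± 0.09 (SE, adjusted p = 0.00509, edgeR), with 15 of 16 CEPT EB libraries above the Y27 EB median, though it became 0.03 under library totals and turned to -0.13 under reference genes, neither called. Probe 296 ranged from 280.3 to 705 CPM in CEPT EB, against 333 to 572 in Y27 EB, so that the CEPT EB libraries reached both higher and lower. Its log2 fold change of 0.10 ± 0.10 did not pass (adjusted p = 0.537, edgeR), and under reference genes it was -0.38 and called lower.

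Both death genes were higher in CEPT EB under TMM. BBC3 probe 49 ranged from 18.2 to 92.3 CPM in CEPT EB (median 44.1), against 13.7 to 48.5 in Y27 EB (median 27.5), with a log2 fold change of 0.73 ± 0.22 (SE, adjusted p = 0.012, edgeR). BBC3 probe 828 ranged from 47.5 to 138 CPM in CEPT EB (median 70.8), against 2.17 to 92.3 in Y27 EB (median 50.5). The lowest Y27 EB value was replicate 15, with 1 read. The log2 fold change of probe 828 was 0.58 ± 0.21 (SE, adjusted p = 0.0411, edgeR) and 0.51 without that library (adjusted p = 0.021). All 3 FAS probes moved the same way, with 13 to 15 of 16 CEPT EB libraries above the Y27 EB median. FAS probe 245 ranged from 24.6 to 65.4 CPM in CEPT EB (median 41.1), against 9.69 to 46.9 in Y27 EB (median 28.0), with a log2 fold change of 0.56 ± 0.17 (SE, adjusted p = 0.0141, edgeR). Probe 244 gave 0.87 ± 0.30 (adjusted p = 0.0348) and probe 246 gave 0.51 ± 0.19 (adjusted p = 0.0495). Of these, 3 calls were close to the threshold. With each of the 32 libraries left out in turn, that of FAS probe 246 was lost 19 times (adjusted p up to 0.0853), that of BBC3 probe 828 in 9 cases (up to 0.0681) and that of FAS probe 244 in 4 (up to 0.0568). Without CEPT EB replicate 7 or Y27 EB replicate 2 all 3 were lost, leaving 5 of the 8 increases. Under library totals no BBC3 or FAS probe was called, with log2 fold changes of 0.18 to 0.53.

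Of the repair genes, XPC was lower in CEPT EB by probe 800, and DDB2, like GADD45A probe 296, did not pass the test. XPC probe 800 ranged from 10.7 to 51.8 CPM in CEPT EB (median 41.2), against 44.2 to 82.2 in Y27 EB (median 58.0). None of the 16 CEPT EB libraries reached the Y27 EB median, although the ranges overlapped. The log2 fold change came to -0.70 ± 0.14 (SE, adjusted p = 0.000336, edgeR), -1.06 under library totals and -1.25 under reference genes. XPC probe 801 ranged from 43.6 to 103 CPM in CEPT EB (median 70.5), against 45.7 to 122 in Y27 EB (median 88.5). At -0.31 ± 0.12 it missed the threshold (adjusted p = 0.0667, edgeR), but it passed without Y27 EB replicate 15 (-0.35, adjusted p = 0.0214), which was the lowest of its arm, and without CEPT EB replicate 2 or 3. It also passed under library totals (-0.62) and reference genes (-0.78). DDB2 probe 163 ranged from 46.9 to 115 CPM in CEPT EB (median 86.4), against 49.8 to 110.1 in Y27 EB (median 77.7). Its log2 fold change came to 0.11 ± 0.11 (SE, adjusted p = 0.519, edgeR), and that of probe 162 was 0.02 ± 0.31 (adjusted p = 0.958), and both turned negative without being called under library totals and reference genes.

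**Figure D2:**
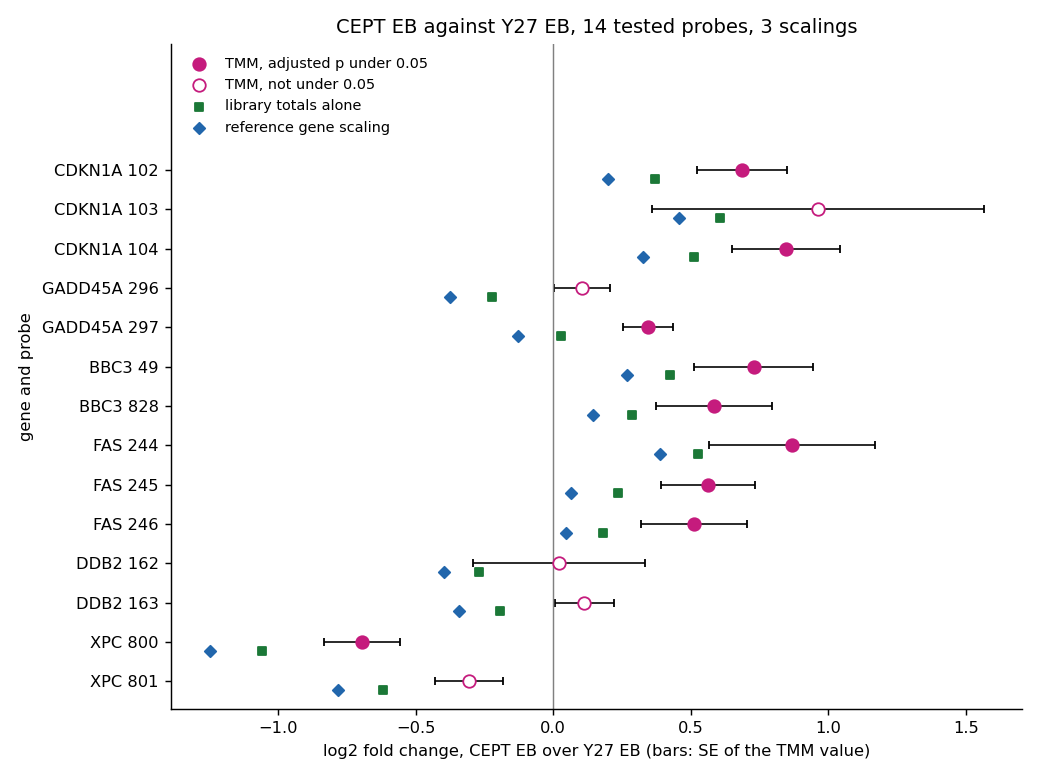
Log2 fold change (horizontal axis) of CEPT EB over Y27 EB for the 14 tested probes (vertical axis) with TMM factors (circles, filled where the adjusted p was under 0.05, bars SE), library totals alone (squares) and reference genes (diamonds). The alternatives shift all probes left by about the same amount. The called CDKN1A, BBC3 and FAS probes stay right of 0, both GADD45A probes end left of it under reference genes, and the XPC probes stay left.

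Reads were also summed over the probes of each gene, an alternative added after the probe results were seen. With TMM, CDKN1A, FAS, BBC3 and GADD45A were higher in CEPT EB, with log2 fold changes of 0.75 ± 0.16, 0.59 ± 0.14, 0.63 ± 0.18 and 0.24 ± 0.08 (SE, adjusted p = 0.000699, 0.00196, 0.00742 and 0.0224, edgeR over 382 genes). GADD45A became -0.069 under library totals and -0.22 under reference genes, not called in either. XPC was lower, at -0.46 ± 0.09 (adjusted p = 0.000285), and DDB2 was at 0.10 ± 0.10 (adjusted p = 0.516). With TMM, these 5 summed calls held with each of the 32 libraries left out in turn. Under library totals, XPC was the only 1 of the 6 genes called.

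The genes were then set against each other within a library, which needs no scaling factor. For each gene, the log2 of its summed reads minus the mean of the same value over the other 5 genes was compared between the arms, as a description without a test. XPC moved most, from 0.201 ± 0.273 in Y27 EB to -0.719 ± 0.331 in CEPT EB (SD, n = 16 each). Of the CEPT EB libraries, 14 lay below the lowest Y27 EB library and 0 above the Y27 EB median. CDKN1A was 0.49 ± 0.14 higher in CEPT EB (SE of the difference), with 14 of 16 libraries above the Y27 EB median. BBC3 was 0.41 ± 0.19 higher and FAS 0.36 ± 0.15 higher, with 13 of 16 libraries above in each. DDB2 was lower by -0.25 ± 0.12 and GADD45A differed by -0.09 ± 0.08. Because each gene is measured against the rest, the 6 values are not independent, and a fall of 1 gene raises the others.

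**Figure D3:**
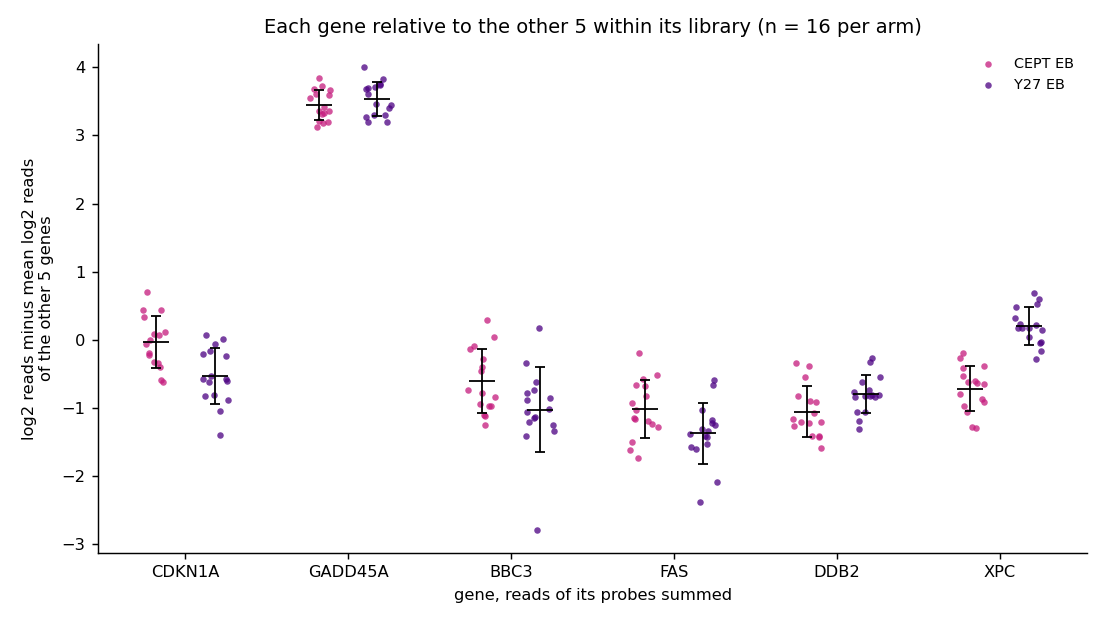
For each gene (horizontal axis), the log2 of its summed reads minus the mean log2 reads of the other 5 genes (vertical axis) in the 16 CEPT EB and 16 Y27 EB libraries, with mean and SD. XPC separates the arms most (-0.719 against 0.201), CDKN1A stands higher in CEPT EB (-0.038 against -0.532), and GADD45A overlaps almost fully. The height of a gene reflects its probes and is not compared between genes.

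Of the other genes on the lists of damage-induced genes, damage signalling, death machinery and cell cycle, 37 probes were tested between the EB arms, and CEPT EB had 4 called higher with 10 called lower. Over all 867 tested probes, 92 were called higher and 113 lower, or 23.6% called. The 12 probes of damage-induced genes did not move as a group, with 3 higher and 2 lower. All 3 probes of GDF15, a secreted stress cytokine, were higher in CEPT EB. Probe 1191 had a median of 47.9 CPM and a highest value of 501, against 7.09 and 28.9 in Y27 EB, and its log2 fold change came to 3.26 ± 0.52 (SE, adjusted p = 2.26e-05, edgeR). It was still called under library totals (3.02), under reference genes (2.91) and without CEPT EB replicate 7, its highest library (2.58). In contrast, 2 of 3 probes of BTG2, an antiproliferative gene, were lower, at -0.34 ± 0.12 and -0.34 ± 0.13 (adjusted p = 0.0308 and 0.0445), and neither call held without that library. The 3 tested probes each of GADD45G and of TNFRSF10B, another death receptor gene, did not pass.

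Of the damage kinases, CHEK2 probe 119 was higher in CEPT EB, with a log2 fold change of 0.53 ± 0.11 (SE, adjusted p = 0.000607, edgeR), a call lost under library totals (0.24). ATM probe 40 was lower (-0.38 ± 0.08, adjusted p = 0.0011), as was CHEK1 probe 841 (-0.64 ± 0.20, adjusted p = 0.016). The other tested probes of these kinases did not pass: CHEK2 probe 118 (0.12), ATM probes 39 and 41 (-0.24 and -0.17) and ATR probes 47 and 48 (-0.40 and -0.07). Of the death machinery, MCL1 probe 462 was lower (-0.85 ± 0.19, adjusted p = 0.000952) and 7 other probes did not pass. All 3 probes of TOP2A, a topoisomerase of dividing cells, were lower, at -0.27 to -0.46, while the MKI67 probe was not called. Under library totals, 3 of the 37 probes were called higher, all of GDF15, and 22 lower.

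Cell type markers also differed between the EB arms. Of 9 tested neural crest probes, 7 were lower in CEPT EB, and the summed level of these genes was 2257 to 3552 CPM there and 2967 to 4768 in Y27 EB. Of 11 ectoderm marker probes, 3 of OTX2 were higher and 2 of PAX3 lower. The mesoderm markers summed to 7.38 to 446 CPM in CEPT EB and 0 to 3868 in Y27 EB, the highest being replicate 15, and the endoderm markers to 0 to 113 and 3.33 to 202. None of the 2 mesoderm and 5 endoderm marker probes tested was called between the arms. CDX2 probes 106 and 107 were at 0 in every CEPT EB library. Their Y27 EB median was also 0, with highest values of 2.175 and 4.351 CPM in replicate 15. Whether these cell mixtures had a part in the differences of the 6 genes was not tested.

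Against hESC and with TMM, no differentiated culture raised or lowered all of the 6 genes. In ectoderm the exception was XPC (probes 800 and 801) and in mesoderm BBC3. The negative values of these probes turned positive under reference genes, so for these cultures the statement depends on the scaling. GADD45A was higher in all 5 comparisons. CDKN1A rose in ectoderm, mesoderm and both EB arms, less firmly in Y27 EB, and fell in endoderm, and DDB2 rose in ectoderm and mesoderm and fell in endoderm and both EB arms. FAS, near the limit of detection in hESC, rose in ectoderm, mesoderm and both EB arms. BBC3 rose in ectoderm and endoderm. With its probes summed, XPC passed the test in mesoderm only, at 0.44 ± 0.08 (adjusted p = 2.52e-05, edgeR over 387 genes). That value lies above those of XPC probes 800, 801 and 802 there (0.20, 0.26 and 0.13). The fit of summed probes computed its own TMM factors, so its values can lie outside those of a gene's probes. With these tests most of the panel was called, and the member counts are to be read against that. In ectoderm 12 of 15 member probes were higher and 1 lower (81.7% of all tested probes called), and in mesoderm 11 higher and 1 lower (77.5%). In endoderm 4 were higher and 9 lower (78.2%). The 9 include all 3 FAS probes, which had few reads in both groups. With single libraries left out, 6 to 8 were lower. In CEPT EB 7 of 14 were higher and 3 lower (73.4%), and in Y27 EB 7 of 15 higher and 3 lower (74.1%). These comparisons share the 4 hESC libraries, and the control fit computed its own TMM factors. In the mesoderm and endoderm comparisons the log2 fold changes therefore stand below the ratio of the printed CPM values. A fit of all 48 libraries moved the median by 0.21 in mesoderm and by 0.07 in endoderm. Control titles carry a code that EB titles lack and that the labels do not explain. If it marks a difference in handling, that and the group cannot be told apart where an EB arm is compared with hESC.

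For most tested probes, the range of a differentiated control stood apart from that of hESC. The share was 78.5% in ectoderm, 71.2% in mesoderm and 73.9% in endoderm. Separate ranges of single genes, here and below, are to be read against these shares. The 4 control groups did not overlap in the level of CDKN1A probe 102. It was at 40.3, 40.3, 34.2 and 45.6 CPM in the hESC libraries. In ectoderm it was at 193.9, 206, 189 and 211, all above hESC, and its log2 fold change came to 2.27 ± 0.20 (SE, adjusted p = 4.89e-09, edgeR). In mesoderm it was at 663, 684, 492 and 708, above every other library of the series, with a log2 fold change of 3.72 ± 0.21 (adjusted p = 6.05e-12, edgeR). In endoderm it was at 4.84, 7.95, 1.97 and 11.3, from 4 to 31 reads, below every other library, with a log2 fold change of -2.73 ± 0.27 (adjusted p = 1.91e-08, edgeR). Probes 104 and 103 moved in the same directions, with log2 fold changes of 2.46 and 2.34 in ectoderm, 3.77 and 4.26 in mesoderm, and -2.52 and -1.95 in endoderm. In mesoderm replicate 3, probes 102 and 104 were the lowest of the 4 libraries while probe 103 was the highest (146 CPM against 63.0 to 70.7).

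In the EB arms CDKN1A stood between hESC and ectoderm. Over all tested probes, 56.8% did not overlap hESC in CEPT EB and 55.1% in Y27 EB. These shares also apply to the genes below. All 16 CEPT EB libraries were above the 4 hESC libraries for probe 102, with a log2 fold change of 1.45 ± 0.29 (SE, adjusted p = 0.000109, edgeR), and probe 104 gave 1.62 ± 0.32 (adjusted p = 8.12e-05). In Y27 EB the ranges overlapped those of hESC, and the values were 0.71 ± 0.23 (adjusted p = 0.00858) and 0.72 ± 0.30 (adjusted p = 0.0398). Both Y27 EB calls were lost with median-ratio factors (0.46 for each), with upper-quartile factors (0.38 for each), with DESeq2 and without Y27 EB replicate 1 (0.50 and 0.51). The call of probe 104 was also lost without each hESC library in turn and without Y27 EB replicate 5, 6, 7, 8 or 13, at 0.65 to 0.80.

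GADD45A was lowest in hESC for both probes. Probe 296 was at 171, 165, 171 and 177 CPM in hESC and at 1655, 1663, 1704 and 1729 in ectoderm. Endoderm stood at 1223, 1337, 1258 and 1359 and mesoderm at 948, 975, 977 and 1036, and these 4 groups did not overlap. The log2 fold changes were 3.25 ± 0.08 in ectoderm, 2.75 ± 0.07 in endoderm and 2.25 ± 0.07 in mesoderm (SE, adjusted p = 1.79e-17, 7.77e-17 and 1.13e-15, edgeR). Every EB library was above hESC, with 1.48 ± 0.20 in CEPT EB and 1.34 ± 0.13 in Y27 EB (adjusted p = 7.45e-07 and 5.09e-09). Probe 297 gave the same order of groups and log2 fold changes of 1.55 to 3.00.

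BBC3 was highest in endoderm, where CDKN1A, FAS and DDB2 were lowest. Probe 828 was at 57.8, 71.2, 49.3 and 59.1 CPM in hESC, at 270.4, 275, 229.9 and 296 in endoderm and at 162, 162, 129 and 189.6 in ectoderm. The endoderm libraries were all above the ectoderm libraries, which were all above hESC. The log2 fold changes were 2.00 ± 0.16 in endoderm and 1.38 ± 0.16 in ectoderm (SE, adjusted p = 8.82e-10 and 1.58e-07, edgeR). In mesoderm probe 828 gave -0.22 ± 0.16 (adjusted p = 0.211) and probe 49 gave -0.61 ± 0.16 (adjusted p = 0.00242). The latter call was lost without mesoderm replicate 3 (-0.32) and in a fit of all 48 libraries (-0.38), and under reference genes both probes turned positive (0.53, called, and 0.14, not called). The EB arms stayed near hESC. CEPT EB had no call, and Y27 EB a single one, probe 49, at -0.65 ± 0.25 (adjusted p = 0.0224), which became 0.26 under reference genes, without a call, and was lost without hESC replicate 3 or 4.

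FAS gave few reads outside the EB arms. In hESC the 3 probes had 0 to 5 reads in a library, and in endoderm 0 to 2, with probe 244 at 0 in all 4. Both are within a few reads of the limit of 3 reads that a count of 0 allows, so no fold is given between them, although the fit called all 3 probes lower in endoderm, calls that were lost in 3 to 6 of 8 fits with a library left out. Ectoderm libraries had 28 to 67 reads of probe 245 and mesoderm libraries 16 to 46. With the 3 probes summed, the log2 fold change over hESC was 3.88 ± 0.26 in ectoderm and 3.18 ± 0.27 in mesoderm (SE, adjusted p = 6.72e-12 and 5.3e-10, edgeR). FAS was highest in the EB arms, at 5.12 ± 0.32 in CEPT EB and 4.46 ± 0.33 in Y27 EB (adjusted p = 1.5e-12 and 5.85e-11). For probe 245 every EB library, at 9.69 CPM or more, was above every hESC library, at 1.90 or less. The size of these changes is limited by the few hESC reads, 26 over the 3 probes and 4 libraries.

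**Figure D4:**
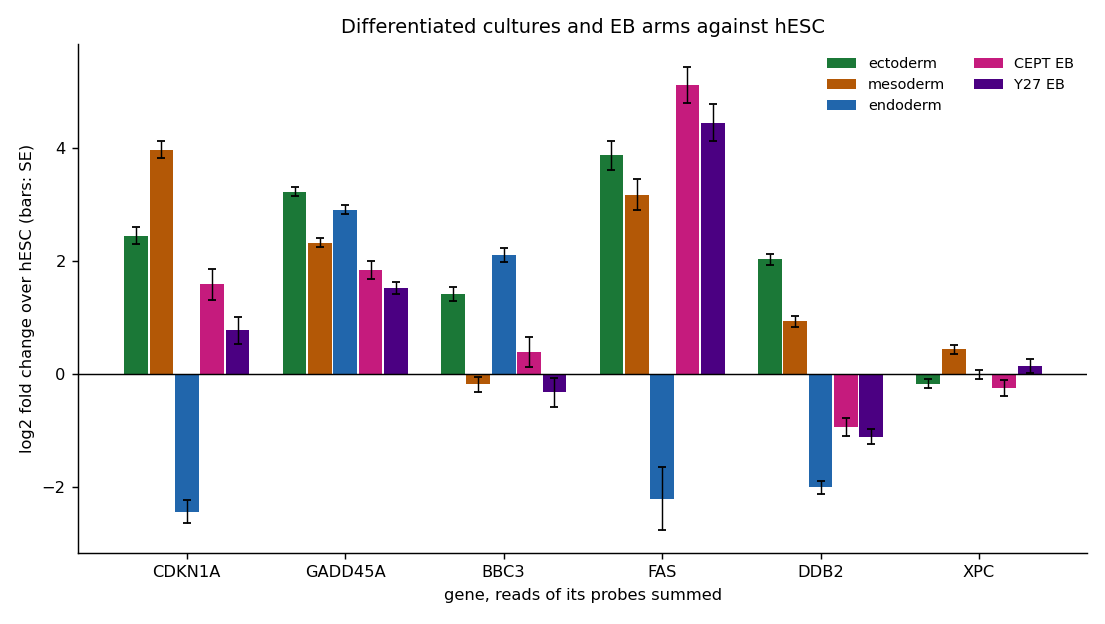
Log2 fold change over hESC (vertical axis, bars SE) with the reads of each gene's probes summed, for the 3 differentiated controls and both EB arms. GADD45A is above 0 in all 5, CDKN1A, FAS and DDB2 are below 0 in endoderm, and BBC3 is highest there (2.11). The FAS bar in endoderm rests on 0 to 3 summed reads a library and is not read as a fold. Bars near 0 are not read for direction, since single XPC and BBC3 probes changed sign under reference genes. The fit of summed probes computed its own TMM factors, so a bar can lie outside the values of its gene's probes.

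DDB2 set the EB arms apart from ectoderm and mesoderm. DDB2 probe 163 was at 166, 190.3, 157 and 197 CPM in hESC, at 683, 678, 652 and 761.7 in ectoderm and at 359.8, 367, 343 and 338 in mesoderm. It was at 42.8, 44.5, 31.5 and 53.6 in endoderm. These 4 groups did not overlap. The log2 fold changes were 1.91 ± 0.12 in ectoderm, 0.71 ± 0.12 in mesoderm and -2.21 ± 0.13 in endoderm (SE, adjusted p = 1.62e-11, 1.83e-05 and 7.65e-12, edgeR). In the EB arms every library, at most 115 CPM, was below every hESC library. The log2 fold changes there were -1.04 ± 0.16 in CEPT EB and -1.20 ± 0.15 in Y27 EB (adjusted p = 2.53e-06 and 1.89e-07), the Y27 EB call being lost under reference genes (-0.30). Probe 162 moved the same way, at -0.92 ± 0.41 and -0.98 ± 0.43 (adjusted p = 0.0479 and 0.0472), though in each arm 14 of the 20 single libraries left out ended its call.

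XPC differed between its probes and with the scaling. Probe 800 was at 73.0, 70.0, 70.6 and 59.1 CPM in hESC, at 59.8, 66.2, 52.3 and 59.4 in ectoderm, and at 69.0, 66.0, 66.0 and 81.7 in endoderm, 3 groups that overlapped. Mesoderm stood at 94.0, 110.1, 75.6 and 95.6, above hESC in every library, but the log2 fold change of 0.20 ± 0.13 did not pass (adjusted p = 0.177, edgeR). It became 0.47 and was called (adjusted p = 0.00155) without mesoderm replicate 3, and was also called without replicate 4 (0.34), under library totals (0.53) and under reference genes (0.94). Probe 801 was called in all 3 lineages, at -0.34 ± 0.12 in ectoderm, 0.26 ± 0.12 in mesoderm and -0.28 ± 0.12 in endoderm (adjusted p = 0.012, 0.0439 and 0.036, edgeR). The ectoderm and endoderm calls were lost with median-ratio factors (-0.19 and -0.13). The ectoderm call was also lost without ectoderm replicate 1 or 2 (-0.24 and -0.15), the endoderm call without hESC replicate 1 or 2 or endoderm replicate 2 or 3 (-0.26 to -0.28), and the mesoderm call without hESC replicate 2, 3 or 4 (0.23 to 0.27). Under reference genes the ectoderm and endoderm values of both probes turned positive (0.31 to 0.48). Every CEPT EB library of probe 800, at most 51.8 CPM, was below the lowest hESC library. Its log2 fold change came to -0.78 ± 0.23 (adjusted p = 0.0046), and -0.44 without a call under reference genes. The difference was limited to that probe, as probe 801 gave -0.03 ± 0.19 in CEPT EB (adjusted p = 0.89, edgeR). The summed probes gave -0.24 ± 0.14 there, without a call (adjusted p = 0.12, edgeR). In Y27 EB probe 800 gave -0.13 ± 0.15 (adjusted p = 0.439). It was called lower with median-ratio factors (-0.38) and higher under reference genes (0.81). XPC probe 802 had 0 to 26 reads in every library and no call.

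Ordered by mean CPM, each gene had its own sequence of groups. All 3 CDKN1A probes gave mesoderm, ectoderm, CEPT EB, Y27 EB, hESC and endoderm from high to low. For probes 102 and 104, mesoderm stood apart from ectoderm and hESC apart from endoderm, and the neighbours between overlapped. All 3 FAS probes gave CEPT EB, Y27 EB, ectoderm, mesoderm, hESC and endoderm, of which only mesoderm and hESC did not overlap as neighbours. Both DDB2 probes gave ectoderm, mesoderm, hESC, CEPT EB, Y27 EB and endoderm, and both GADD45A probes ectoderm, endoderm, mesoderm, CEPT EB, Y27 EB and hESC. Both BBC3 probes began with endoderm, ectoderm and CEPT EB and ended with Y27 EB, while the 3 XPC probes gave 3 different orders. The CDKN1A and FAS orders were the same under all 5 scalings.

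Within an EB arm, the probes of a gene did not always move together from library to library. The correlation of log2 CPM over the 16 libraries of an arm is given as a description, since the points share library and depth. Between CDKN1A probes 102 and 104, r reached 0.82 for CEPT EB, 0.70 for Y27 EB, and between the BBC3 probes 0.74 and 0.42. Between the sparse DDB2 probe 162 and probe 163 it was 0.22 and -0.30, and between XPC probes 801 and 800 it was 0.04 and 0.22. GADD45A probes 296 and 297 gave 0.28 in CEPT EB (0.06 without replicate 7) and 0.54 in Y27 EB. Pairs of FAS probes gave 0.04 to 0.65 in CEPT EB and 0.29 to 0.42 in Y27 EB. Between different genes, taking the highest probe of each, the 15 correlations ranged from -0.53 to 0.71 in CEPT EB (median 0.15) and from -0.27 to 0.70 in Y27 EB (median 0.03). GADD45A and BBC3 gave the highest r in CEPT EB, 0.71, and 0.56 in Y27 EB (0.39 without replicate 15). BBC3 and XPC gave the 0.70 of Y27 EB, which became -0.02 without replicate 15. GADD45A probe 297 and GDF15 probe 1191, a pair chosen after its values were seen, gave 0.79 in CEPT EB (0.74 without replicate 7) and 0.08 in Y27 EB.

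Likeness was measured as Pearson's r of log2 CPM with each member's highest probe over the 48 libraries, and the genes named are among the 3 with the highest r. These were DLL1, SDC2 and SPON1 for CDKN1A (r = 0.82, 0.81 and 0.76). They were WLS, EPHA4 and HES4 for GADD45A (0.87, 0.80 and 0.79), and OTX2, LMX1A and DMRTA1 for BBC3 (0.74, 0.70 and 0.69). FAS was followed by GREB1L, SESN3 and PAX3 (0.92, 0.92 and 0.92) and DDB2 by GPC3 and NELL2 (0.94 and 0.93). For XPC the highest values were low, with TUBB2B and ATR (0.57 and 0.53). These correlations mostly reflect differences between the 6 groups. On deviations from the arm mean over the 32 EB libraries, CDKN1A was most like FZD5, TNFRSF10B and BBC3 (0.64, 0.55 and 0.51), GADD45A like SOX17, DDIT3 and BBS9 (0.60, 0.59 and 0.59), and FAS like TXN, S100A1 and UCHL1 (0.56, 0.55 and 0.52). BBC3 was close to ACHE and LUZP2 (0.68 and 0.68), values that became 0.31 and 0.32 without Y27 EB replicate 15; the ACHE probe averaged 3.71 CPM. DDB2 was most like SYN1, DPPA2 and HLA-B (0.48, 0.43 and 0.42) and XPC like BBC3, NCL and FOXD3 (0.58, 0.57 and 0.56). Without Y27 EB replicate 15 the r of XPC and BBC3 became 0.33.

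The same pathway lists were counted against hESC (edgeR). Of the tested probes of damage-induced genes, 9 of 13 were higher and 4 lower in ectoderm, 9 and 1 in mesoderm, 6 and 2 in endoderm, 6 and 3 of 14 in CEPT EB, and 6 and 4 of 14 in Y27 EB. Over all tested probes, 81.7%, 77.5%, 78.2%, 73.4% and 74.1% were called in that order, and the counts are to be read against that. BTG2 rose in all 5 comparisons, by log2 fold changes of 4.05 to 5.39. TNFRSF10A, a death receptor gene, fell by probe 737 in all 5, by 1.01 to 3.44, from few reads (at most 41 in an hESC library). GDF15 rose in ectoderm and mesoderm by 1.86 to 3.07, did not pass in endoderm or CEPT EB, and fell in Y27 EB by 2 of 3 probes, probe 1191 from 42.0 to 7.92 CPM (-2.38). GADD45G, a relative of GADD45A, was lower in ectoderm (probes 298 and 300, -1.93 and -2.48), did not pass in mesoderm, and was higher in endoderm (1.70 and 1.47), CEPT EB (4.08 and 4.20) and Y27 EB (4.16 and 4.33). TNFRSF10B rose by all 3 probes in ectoderm and mesoderm (1.16 to 2.02), by 1 probe in endoderm (0.77), and fell by 1 in CEPT EB (-0.40).

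Of 13 tested damage signalling and repair probes, 0 were higher and 10 lower in ectoderm, 0 and 6 in mesoderm, 0 and 8 in endoderm, 3 and 3 in CEPT EB, and 5 and 4 in Y27 EB. In each comparison this was a smaller share called than over all tested probes (81.7%, 77.5%, 78.2%, 73.4% and 74.1% in that order). Of 8 death machinery probes, 0 were higher in any of the 3 lineages and 5, 4 and 4 were lower, again a smaller share than over all probes. In the EB arms 2 of 8 were higher and 5 lower for CEPT EB, and 3 of 9 higher and 5 lower for Y27 EB. In both arms this was a larger share called than over all tested probes (73.4% and 74.1%). CYCS, which encodes cytochrome c, rose there by probe 152 (2.48 and 2.42), while the 2 probes of BID moved in opposite directions. Of the 4 cell cycle probes, all were lower in endoderm and in mesoderm, 3, all of TOP2A, were higher in ectoderm, and 1 was lower in each EB arm.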

How the data were processed

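The authors deposited raw read counts per probe, made with a custom aligner per the series' design text. Its version, mismatches and the probe sequences are not given in the sources used here, and the submitters' processing notes name DESeq2 and hg38. The counts of 48 libraries were used, and 16 further columns of the merged table that match no label were not. No molecular identifiers are mentioned, so counts are of reads. The floor of 3 reads covers counting error only. P-values cover counting error and the spread between libraries, which may be technical.

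Probes were filtered with filterByExpr, scaled by TMM and tested with edgeR 4.0.16 in R 4.3.3 (robust quasi-likelihood test, two-sided, Benjamini-Hochberg over all tested probes, threshold 0.05). The EB arms were fitted on 32 libraries, the 3 lineages on the 16 controls and each EB arm with hESC. Standard errors come from the log2 fold change and F. Levels use TMM factors over 48 libraries, and correlations log2 CPM with a prior count of 2. Every member probe is accounted for. Other pathway genes are named where called between the EB arms, with the 3 genes most like each member, and some genes these rules name are not reported here. Members and lists were chosen with earlier results of these data known. The fits were tested on simulated data. Alternatives were 4 other scalings (the reference set held 4 genes), 2 other filters, DESeq2 1.42.0, a replicate block, a fit of all libraries, summed probes and libraries left out.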

Additional observations from a re-analysis of the deposited data

Results flagged for a closer look

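Of 51 combinations of a member probe and a control group of 4 libraries with more than 10 reads, 3 had a library whose gap to the nearest other exceeded Dixon's 95% critical value, a share of the group's range. Chance alone gives about 1 in 20. CDKN1A probe 103 stood at 146 CPM in mesoderm replicate 3, against 63.0 to 70.7 in the other 3 libraries. XPC probe 801 stood at 143 CPM in the same library, against 101 to 105. BBC3 probe 49 stood at 83.8 CPM in ectoderm replicate 3, against 115 to 119.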

How the results depend on the processing

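Scaling limits the comparison of the EB arms most, and few reads limit FAS outside them. Of values for single probes and genes under settings other than leaving out a library, 723 kept direction and side of the threshold, 71 lost and 17 gained a call, 12 reversed and 4 moved. An uncalled value that changed sign is among the 723. The cause of these changes was not tested, except that fewer probes are tested with at least 10 reads in every library or when probes are summed. For CEPT EB against Y27 EB, the 8 probes called higher became 0 under library totals, 0 under reference genes, 5 with at least 10 reads in every library and 5 with the replicate block. The 1 called lower became 2 under library totals, 3 under reference genes, 2 in the fit of all libraries and 2 without the low library. The 205 calls over all probes became 339 under library totals, 439 under reference genes and 112 with probes summed. GADD45A became -0.38 (probe 296) and -0.13 (probe 297) under reference genes, and summed -0.069 under library totals and -0.22 under reference genes. For ectoderm, the 1 called lower became 0 with median-ratio factors, library totals, reference genes, no filter, DESeq2 and the fit of all libraries, and 2 with upper-quartile factors. For mesoderm it became 0 under library totals, reference genes and the fit of all libraries. For endoderm the 9 called lower became 4 under reference genes and 1 with at least 10 reads. For CEPT EB against hESC the 3 became 1 under reference genes, and for Y27 EB 1 under library totals, 0 under reference genes and 1 with at least 10 reads. That filter left 5, 5, 4 and 4 called higher in ectoderm, mesoderm, CEPT EB and Y27 EB, and 426, 395, 400, 426 and 407 calls over all probes in ectoderm, mesoderm, endoderm, CEPT EB and Y27 EB, while summing probes gave 333, 316, 331, 325 and 323. Under reference genes XPC probes 800 and 801 became 0.48 and 0.37 in ectoderm and 0.47 and 0.31 in endoderm, XPC probe 800 became 0.81 in Y27 EB, BBC3 probes 49 and 828 became 0.14 and 0.53 in mesoderm, and BBC3 probe 49 became 0.26 in Y27 EB. The order of groups was kept by 7 of 15 probes under library totals and 6 under reference genes, and Spearman's rho kept 4 of 18 likeness names. Leaving out single libraries gave 5 to 8 called higher and 1 to 2 lower between the EB arms, 0 to 1 lower in ectoderm and in mesoderm, and 1 to 3 lower in Y27 EB against hESC. For endoderm it gave 6 to 8 lower, against 9 with all libraries. Same-numbered EB libraries did not deviate together (r from -0.27 to 0.18, 3 of 16 over 0.1), so the numbers were not taken as pairs. With the replicate block, FAS probes 244 and 246 and BBC3 probe 828 were no longer called (adjusted p = 0.0786, 0.138 and 0.107, edgeR), and all probes gave 167 calls against 205.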
